A study of Danio rerio with 16 samples.

Results

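The 6 genes described here carry names known from liver and gut metabolism, and they were picked from these libraries for their differences between Gata morphants and WT embryos at stages when the zebrafish embryo has no liver. They are proz, ahsg1, abcb11a, dao, creb3l3l and ppp1r3ab. The names matched 8 identifiers among the 27257 in the files, because dao matched 3 of them. RNA with polyA tails was sequenced from pools of 40 whole embryos, as single reads of 36 bases. The embryos were labelled WT, Gata5 morphant, Gata6 morphant or Gata5/6 morphant, and each kind was collected at bud, the end of gastrulation, and at 6-somites. There were 2 libraries in each of the 8 groups, 16 in all. The study title concerns Tmem88a and the specification of cardiomyocyte progenitors downstream of GATA factors.

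Morphants are made by injecting a morpholino, which binds a transcript and keeps it from being translated or spliced, so the level of the targeted mRNA need not be lower. The labels give no dose, clutch, injection day or control injection, and the extent of protein knockdown was not measured. Gata5/6 morphants are called double morphants below. Nothing in the labels says that the libraries of a group came from separate clutches, so every error below describes the spread between pools of embryos, which may be technical. In whole embryos, fewer cells of a type and less RNA per cell cannot be told apart.

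In the adult, hepatocytes secrete most plasma proteins, export bile salts into the bile canaliculi, oxidise substrates in peroxisomes and store glucose as glycogen. In the early zebrafish embryo, the yolk syncytial layer, a multinucleate layer that surrounds the yolk and mobilises its nutrients, expresses many apolipoproteins and plasma proteins that the liver makes later. Gata5 and Gata6 are zinc-finger transcription factors of heart, endoderm and yolk syncytial layer development.

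proz encodes protein Z, a vitamin K-dependent plasma protein that in mammals assists the inhibition of coagulation factor Xa. ahsg1 belongs to the family of alpha-2-HS-glycoprotein (fetuin-A), a plasma glycoprotein that in mammals binds calcium phosphate. abcb11a is a zebrafish form of the bile salt export pump, and dao encodes D-amino acid oxidase of the peroxisome. creb3l3l is a relative of CREB3L3, a transcription factor held in the endoplasmic reticulum membrane of mammalian liver and gut cells until it is cleaved. ppp1r3ab encodes a subunit that targets protein phosphatase 1 to glycogen. Its mammalian counterpart PPP1R3A is the form of skeletal muscle, so the name "liver-type" applies to it only by pathway.

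Levels are given as RPKM, read numbers scaled to the length of the gene model and to the size of the library, as the authors deposited them. Depth recovered from the steps of these values was 19.7 to 30.8 M reads per library (M, mega), with a median of 28.5 M reads. The RNA of gata5 (ENSDARG00000017821) was not lower in the embryos in which it was targeted. At bud it stood at 49.6 ± 4.66 RPKM (SD, n = 2) in WT, and in Gata5 and double morphants at 110.0 ± 5.99 and 159 ± 1.49 RPKM. No identifier was matched to gata6, which is not analysed here. The 4 bud libraries of replicate 2 stood apart in hepatocyte markers. fabp10a, the fatty acid binding protein of zebrafish hepatocytes, was at 0.285, 0.236, 0.221 and 0.111 RPKM in replicate 1 of WT, Gata5, Gata6 and double morphants at bud, and at 90.1, 25.7, 22.2 and 112 RPKM in replicate 2 of the same groups. Of 11 hepatocyte markers, 7 (fabp10a, cp, hpxa, f2, fgb, ambp and c9) were higher in replicate 2 in all 4 bud groups. Of the 8 members, 0 were, and of 15 yolk syncytial layer markers 2 were (apoc1 and ttr). Among the members, ahsg1, creb3l3l and dao ENSDARG00000035601 were higher in replicate 2 in 3 of the 4 groups, and the rest in 2 or fewer. The ratio of replicate 2 to replicate 1 reached 12.8 for ahsg1. Summed RPKM of 11 p53 response markers ran from 121 to 166 in the WT and Gata5 morphant libraries at bud, were 421 and 252 in the Gata6 morphant libraries and 298 and 137 in the double morphant libraries, and ran from 131 to 139 in WT against 190 to 274 in morphants at 6-somites. Their part in the results below was not tested.

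Because the differences between genotypes chose these genes, those differences are given as a description, with no p. The counts of members called below come from a test on the values that chose them, so they are no evidence of a difference. Of the 8 identifiers, 7 had at least 1 RPKM in at least 2 libraries and entered the fit of limma across all genes on log2(RPKM + 1), and dao ENSDARG00000035601 did not. A gene was counted as called when its Benjamini-Hochberg adjusted p was under 0.05. In Gata5 morphants creb3l3l was called higher at bud, where 0.136% of all genes tested were called higher and 0.224% lower, and again at 6-somites, where the shares were 0.359% and 0.115%. In Gata6 morphants proz was called higher at bud, beside 0.854% of genes called higher and 0.779% lower. In Gata6 morphants at 6-somites limma called 0 of the 7, beside 0.156% higher and 0.183% lower. There 3 had an unadjusted p under 0.05, and limma-voom on recovered reads also called 0. In double morphants at bud 2 were called higher and 3 lower, beside 0.766% and 0.827% of all genes. In double morphants at 6-somites 3 were called higher and 4 lower, beside 1.78% and 2.02%. Without the 4 bud libraries of replicate 2, an alternative chosen after seeing the data, each bud group held 1 library. More members were then called in every comparison except double morphants at 6-somites, where all 7 were called already. More of all genes were also called in every comparison of morphants with WT, so the rise is not particular to the members. Without the replicate 1 libraries of Gata6 and double morphants at bud, also chosen after seeing the data, these groups held 1 library each. Fewer members and fewer of all genes were then called in double morphants at bud. Nothing is read from these counts, since the same contrasts chose the genes, and all 3 morphant groups of a stage share its 2 WT libraries.

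**Figure D1:**
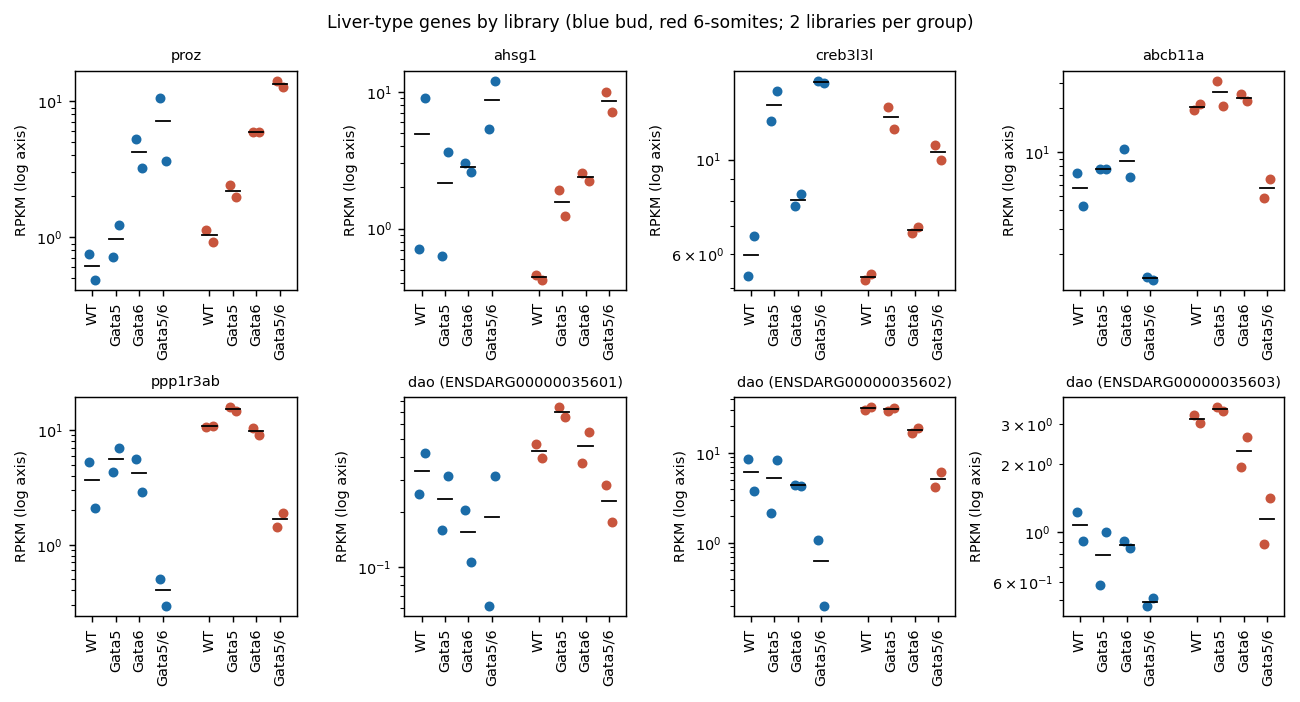
RPKM of the 8 identifiers in each of the 16 libraries, on log axes, with blue points for bud, red points for 6-somites and a black line at the mean of each group of 2. At 6-somites proz and ahsg1 have their highest levels in double morphants, 12.7 to 14.2 and 7.17 to 9.94 RPKM, where abcb11a, ppp1r3ab and dao ENSDARG00000035602 have their lowest.

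proz (ENSDARG00000076900, spelled PROZ in the gene table) was high wherever Gata6 was targeted. At bud it was at 0.752 and 0.488 RPKM in WT, 0.711 and 1.23 RPKM in Gata5 morphants, 5.24 and 3.25 RPKM in Gata6 morphants, and 10.6 and 3.66 RPKM in double morphants. The 4 libraries of Gata6 and double morphants lay above the other 4, while Gata5 morphants overlapped WT and double morphants overlapped Gata6 morphants. 6-somites embryos had 1.14 and 0.925 RPKM in WT, 2.42 and 1.99 RPKM in Gata5 morphants, 5.9 and 5.94 RPKM in Gata6 morphants, and 14.2 and 12.7 RPKM in double morphants. No groups overlapped at that stage, and the order from low to high was WT, Gata5, Gata6 and double morphants. The mean of the double morphants was 11.5 times that of WT at bud, a log2 change of 2.19 ± 0.33 (limma standard error), and 13.1 times at 6-somites, 2.83 ± 0.33. The log2 change in Gata6 morphants was 1.67 at bud and 1.77 at 6-somites, and in Gata5 morphants 0.28 and 0.66. The levels of proz rest on 20 to 619 recovered reads per library. Replicate 1 of the double morphants at bud, the higher library for proz, had a p53 marker sum of 298 against 137 in replicate 2, and both Gata6 morphant libraries at bud had sums above WT. The part of this in the result was not tested. A relative, proza (ENSDARG00000037783), stood between 3.05 and 4.31 RPKM in the group means of all 8 groups and passed no test against WT, with log2 changes from -0.21 to 0.2 and adjusted p from 0.421 to 0.973.

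ahsg1 (ENSDARG00000026764) had the highest fold of the 6 genes at 6-somites and an unstable level at bud. At 6-somites it was at 0.456 and 0.423 RPKM in WT, 1.92 and 1.23 RPKM in Gata5 morphants, 2.56 and 2.24 RPKM in Gata6 morphants, and 9.94 and 7.17 RPKM in double morphants. The groups did not overlap and kept the order seen for proz. The mean of the double morphants, 8.55 ± 1.96 RPKM, was 19.5 times the 0.44 ± 0.0232 RPKM of WT (SD, n = 2), a log2 change of 2.71 ± 0.676, and the single morphants differed from WT by 0.83 and 1.24. At bud the values were 0.712 and 9.09 RPKM in WT, 0.626 and 3.65 RPKM in Gata5 morphants, 3.04 and 2.58 RPKM in Gata6 morphants, and 5.37 and 12.1 RPKM in double morphants. All 3 morphant groups overlapped WT at bud, because the second WT library was above every other bud library except the second double morphant library. The double morphants lay above both kinds of single morphants at both stages.

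The level of ahsg1 at bud was higher in replicate 2, where the hepatocyte markers were high, in 3 of the 4 groups. WT replicate 2 at bud, with ahsg1 at 9.09 RPKM, had fabp10a at 90.1 RPKM and the complement protein c9 at 12.1 RPKM, and WT replicate 1, with ahsg1 at 0.712 RPKM, had them at 0.285 and 0.0278 RPKM. Gata6 morphants were the exception, with ahsg1 at 3.04 and 2.58 RPKM while fabp10a went from 0.221 to 22.2 RPKM and c9 from 0.139 to 2.89 RPKM. In the replicate 1 libraries alone, in which fabp10a was at most 0.285 RPKM, ahsg1 of double morphants was 7.54 times and of Gata6 morphants 4.26 times that of WT, while that of Gata5 morphants was 0.879 times. At 6-somites the levels of some of these markers were higher in double morphants than in WT without overlap, with fabp10a at 20.3 and 6 RPKM against 1.23 and 1.21 in WT. The fibrinogen gene fgb was at 10.3 and 9.25 RPKM there against 1.36 and 1.3, and c9 at 4.68 and 3.59 RPKM against 0.366 and 0.317. cp, f2, serpina1 and hpxa also lay above WT without overlap in double morphants. The remaining markers overlapped WT, with tfa at 118 and 111 RPKM against 111 and 123, uox at 22.7 and 25.3 RPKM against 23.6 and 27.1, and ambp at 3.35 and 1.92 RPKM against 2.75 and 2.27. The last of them, cyp7a1, was at 0.0172 and 0.0271 RPKM against 0.026 and 0.00804. Gata5 and Gata6 morphants also lay above WT without overlap for fabp10a, fgb and c9. Of 10 hepatocyte markers tested, limma called 0 in double morphants at 6-somites, with 1 at an unadjusted p under 0.05 and 0 called by limma-voom. When the 4 bud libraries of replicate 2 were left out, some were called higher, and more of all genes were called too. Summed RPKM of all 11 hepatocyte markers at 6-somites was 177 to 193 in WT, 207 to 281 in Gata5 morphants, 271 to 279 in Gata6 morphants and 216 to 241 in double morphants. tfa was the largest part of each sum. The part of these markers in the level of ahsg1 was not tested. The related ahsg2 (ENSDARG00000069293) and fetub (ENSDARG00000053973) differed in level from ahsg1. ahsg2 stayed under the filter, with group means of 0.0344 to 0.444 RPKM. fetub was at 1123 to 1823 RPKM in the group means and passed no test against WT.

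**Figure D2:**
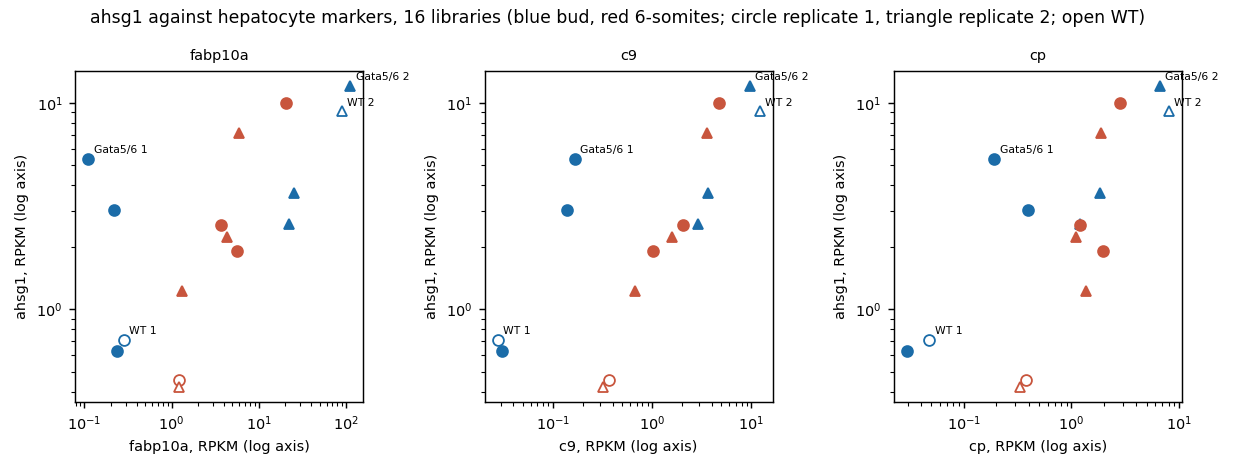
RPKM of ahsg1 against RPKM of the hepatocyte markers fabp10a, c9 and cp in the 16 libraries, on log axes, with blue for bud, red for 6-somites, open symbols for WT, circles for replicate 1 and triangles for replicate 2. WT replicate 2 and double morphant replicate 2 at bud have the highest fabp10a, 90.1 and 112 RPKM, and 2 of the 3 highest levels of ahsg1, while double morphant replicate 1 at bud has ahsg1 at 5.37 RPKM with fabp10a at 0.111 RPKM.

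abcb11a (ENSDARG00000011573) was low in double morphants alone. At bud it was at 7.18 and 4.26 RPKM in WT, 7.74 and 7.72 RPKM in Gata5 morphants, 10.6 and 6.77 RPKM in Gata6 morphants, and 1.4 and 1.34 RPKM in double morphants. Both double morphant libraries lay below the other 6, and both kinds of single morphants had means above WT. At 6-somites it was at 19.5 and 21.4 RPKM in WT, 31 and 20.8 RPKM in Gata5 morphants, 25 and 22.4 RPKM in Gata6 morphants, and 4.89 and 6.54 RPKM in double morphants. Gata5 morphants overlapped both WT and Gata6 morphants there, and the double morphants lay below all 6 other libraries. The WT mean was 4.17 times that of double morphants at bud and 3.58 times at 6-somites, log2 changes of -1.47 ± 0.244 and -1.68 ± 0.244. The log2 changes of Gata5 and Gata6 morphants had the other sign but were small beside their standard error of 0.244. They were 0.41 and 0.54 at bud, where Gata6 morphants overlapped WT, and 0.3 and 0.2 at 6-somites. When single libraries were left out, they went as low as 0.09 and 0.22 at bud and 0.02 and 0.13 at 6-somites. A further row named abcb11 (ENSDARG00000070078) and the phospholipid transporter abcb4 (ENSDARG00000010936) had group means of at most 0.137 and 0.0835 RPKM.

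ppp1r3ab (ENSDARG00000088813) was also low in double morphants alone, by a larger fold. At bud it was at 5.23 and 2.09 RPKM in WT, 4.28 and 6.99 RPKM in Gata5 morphants, 5.64 and 2.9 RPKM in Gata6 morphants, and 0.506 and 0.292 RPKM in double morphants. The first 3 groups overlapped and the double morphants lay below them. At 6-somites it was at 10.6 and 11 RPKM in WT, 16 and 14.6 RPKM in Gata5 morphants, 10.5 and 9.13 RPKM in Gata6 morphants, and 1.43 and 1.9 RPKM in double morphants. Gata5 morphants lay above all other groups, Gata6 morphants just below WT, and double morphants far below. The WT mean was 9.17 times that of double morphants at bud and 6.46 times at 6-somites, log2 changes of -1.65 ± 0.316 and -2.15 ± 0.316. The other copy, ppp1r3aa (ENSDARG00000090468), had group means of at most 0.163 RPKM.

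The 3 identifiers named dao (ENSDARG00000035601, ENSDARG00000035602 and ENSDARG00000035603) are called copies A, B and C here. A RefSeq table of another build lists 3 neighbouring dao genes, but the files do not say which identifier is which, and reads of 36 bases from near-identical copies may have been split between them, so their separate levels are uncertain. Copy B had the highest mean of the copies in every group, although in replicate 2 of double morphants at bud it was the lowest. It was at 0.202 RPKM there, on 15 recovered reads, against 0.313 for copy A and 0.512 for copy C. At bud copy B was at 8.6 and 3.82 RPKM in WT, 2.18 and 8.28 RPKM in Gata5 morphants, 4.43 and 4.35 RPKM in Gata6 morphants, and 1.08 and 0.202 RPKM in double morphants. At 6-somites copy B was at 30.2 and 32.4 RPKM in WT, 29.3 and 31.6 RPKM in Gata5 morphants, 16.7 and 18.9 RPKM in Gata6 morphants, and 4.19 and 6.15 RPKM in double morphants. The double morphants lay below all other groups at both stages, and Gata6 morphants lay between them and WT at 6-somites only. The WT mean of copy B was 9.72 times that of double morphants at bud and 6.05 times at 6-somites, log2 changes of -2.11 ± 0.438 and -2.4 ± 0.438. Gata6 morphants differed from WT by a log2 change of -0.78 at 6-somites and -0.33 at bud.

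Copy C was less abundant and was also lowest in double morphants. At 6-somites copy C was at 3.3 and 3.03 RPKM in WT, 3.58 and 3.44 RPKM in Gata5 morphants, 1.94 and 2.63 RPKM in Gata6 morphants, and 0.885 and 1.41 RPKM in double morphants. No groups overlapped, and WT was 2.76 times the double morphants, a log2 change of -0.97 ± 0.158. At bud it was at 1.23 and 0.91 RPKM in WT and 0.471 and 0.512 RPKM in double morphants, with Gata5 morphants at 0.581 and 1 and Gata6 morphants at 0.91 and 0.846 RPKM. Double morphants were lowest there too, with a log2 change of -0.47 ± 0.158. Copy A ran from 0.0617 to 0.745 RPKM over the 16 libraries, on 3 to 54 recovered reads. Its double morphant libraries at 6-somites, at 0.281 and 0.177 RPKM, lay below WT at 0.467 and 0.394 RPKM, and its bud groups of WT and double morphants overlapped.

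Among the genes listed as gut epithelium markers, fabp2 was low in double morphants, as abcb11a, ppp1r3ab and dao were, and cdh17 was high. cdh17 is also counted among kidney genes, and apoa4b.1 of the same list among yolk syncytial layer markers. Neither the low fabp2 nor the high cdh17 is read as a change in the amount of gut epithelium, which was not tested. fabp2, the intestinal fatty acid binding protein, was at 12 and 16.2 RPKM in double morphants and 253 and 248 RPKM in WT at 6-somites, where it fell by 4.07 on the log2 scale (SE 0.458, limma adjusted p = 0.000953). At bud it fell by 3.52 (adjusted p = 0.00318), from 98.3 ± 60.9 to 7.49 ± 4.77 RPKM. The whole list of 6 matched gut markers summed to 30.9 to 38.8 RPKM in double morphants and 283 to 290 RPKM in WT at 6-somites, and to 14.5 to 25.7 and 62.9 to 154 RPKM at bud, and fabp2 was the largest part of the WT sums. Of the 6, 3 were tested. At 6-somites fabp2 and the apolipoprotein gene apoa4b.1 were called lower and the cadherin gene cdh17 higher. cdh17 rose by 2.55 ± 0.208 at bud (adjusted p = 0.000216) and 1.71 ± 0.208 at 6-somites (adjusted p = 0.0015) in double morphants, and by 1.99 ± 0.208 and 1.33 ± 0.208 in Gata6 morphants (adjusted p = 0.0015 and 0.0273), where it was the gene of this list that was called. Gata6 morphants at 6-somites, in which dao copies B and C were lower than in WT, had fabp2 at 127 RPKM in both libraries, which was not called. The 15 yolk syncytial layer markers summed to 2004 to 2084 RPKM in double morphants against 2956 to 2976 in WT at 6-somites, and to 1475 to 1940 against 1856 to 2446 at bud, where the groups overlapped. The largest part of the WT sums at 6-somites was apoa1a, at 1653 and 1553 RPKM, against 630 and 656 RPKM in double morphants. Of 13 tested at 6-somites, 4 were called higher (slc26a1, apoc2, mttp and mxtx1) and 1 lower (apoa4b.1, the same gene counted among the gut markers above), and the median log2 change was 0.41. apoa1a was not called there. mxtx1, a homeobox gene of the yolk syncytial layer, rose from 1.96 ± 0.441 to 4.32 ± 0.0303 RPKM, a log2 change of 0.85 ± 0.163 (adjusted p = 0.0143). The part of the amount of these tissues in the levels of the members was not tested.

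creb3l3l (ENSDARG00000020926) was high in Gata5 as well as double morphants at both stages. At bud it was at 5.35 and 6.62 RPKM in WT, 12.3 and 14.5 RPKM in Gata5 morphants, 7.8 and 8.31 RPKM in Gata6 morphants, and 15.3 and 15.1 RPKM in double morphants. At 6-somites it was at 5.24 and 5.39 RPKM in WT, 13.3 and 11.8 RPKM in Gata5 morphants, 6.74 and 6.97 RPKM in Gata6 morphants, and 10.8 and 10 RPKM in double morphants. No groups overlapped at either stage. Double morphants were highest at bud and Gata5 morphants at 6-somites, with WT lowest and Gata6 morphants next at both. The mean of Gata5 morphants was 2.24 times WT at bud and 2.36 times at 6-somites, log2 changes of 1.05 ± 0.116 and 1.1 ± 0.116. In double morphants the log2 changes were 1.22 ± 0.116 and 0.85 ± 0.116, and in Gata6 morphants 0.38 and 0.31. gata5 mRNA had the same order of groups at bud and differed at 6-somites, where it was highest in double morphants at 123 ± 9.47 RPKM against 94 ± 4.2 RPKM in Gata5 morphants.

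Of its relatives, creb3l3b fell in double morphants, and creb3l3a did not pass the test there. creb3l3b (ENSDARG00000090903) was at 4.11 ± 0.658 RPKM in WT and 0.481 ± 0.0958 RPKM in double morphants at bud, where it fell by 1.78 on the log2 scale (SE 0.184, limma adjusted p = 0.000693). At 6-somites it fell by 1.19 (SE 0.184, adjusted p = 0.00532), from 7.92 ± 0.517 to 2.91 ± 0.526 RPKM. The double morphant libraries of creb3l3b lay below both WT libraries at each stage. creb3l3a (ENSDARG00000056226) did not pass, at 3.46 ± 0.174 RPKM in WT and 2.61 ± 0.136 RPKM in double morphants at bud (adjusted p = 0.384) and 3.32 ± 0.226 and 4.01 ± 0.703 RPKM at 6-somites (adjusted p = 0.54). Neither creb3l3a nor creb3l3b passed the test in Gata5 morphants, with adjusted p of 0.7 and 0.742 at bud and 0.884 and 0.374 at 6-somites. In double morphants at bud the protease gene mbtps2, whose product cleaves membrane-bound transcription factors, fell from 5.27 ± 0.325 to 3.15 ± 0.366 RPKM, a log2 change of -0.6 ± 0.116 (adjusted p = 0.0282).

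**Figure D3:**
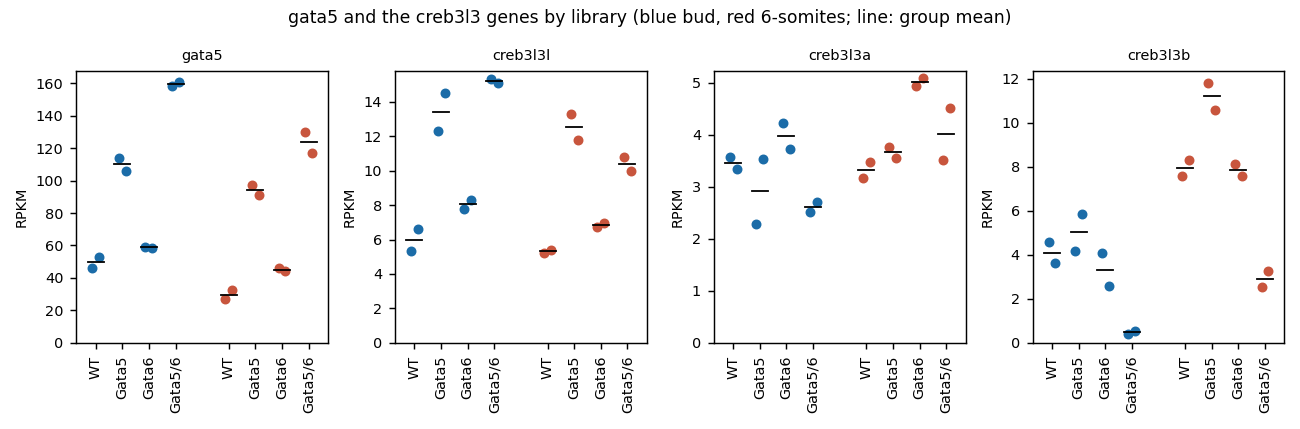
RPKM of gata5, creb3l3l, creb3l3a and creb3l3b in each of the 16 libraries, with blue points for bud, red points for 6-somites and a line at each group mean. creb3l3l is higher in Gata5 and double morphants than in WT, where creb3l3b is lower in double morphants alone, at 0.481 against 4.11 RPKM at bud.

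The log2 changes of the double morphants are given here beside the sums of those of the single morphants. For proz the log2 changes of Gata5 and Gata6 morphants added to 1.95 at bud and 2.43 at 6-somites, and the double morphants had 2.19 and 2.83. For ahsg1 the sums were -0.73 at bud and 2.06 at 6-somites, and the double morphants had 1.14 and 2.71. The bud values of ahsg1 depend on replicate 2, where WT was at 9.09 RPKM against 0.712 RPKM in replicate 1. Without the 4 bud libraries of replicate 2 its log2 changes at bud were -0.07 in Gata5, 1.24 in Gata6 and 1.9 in double morphants. For creb3l3l the sums were 1.42 and 1.41, above the 1.22 and 0.85 of the double morphants. For abcb11a the sums were 0.95 and 0.51 and for ppp1r3ab 0.78 and 0.35, while the double morphants stood at -1.47 and -1.68 for abcb11a and at -1.65 and -2.15 for ppp1r3ab. dao copy B had sums of -0.66 and -0.82 against -2.11 and -2.4, and dao copy C had sums of -0.35 and -0.24 against -0.47 and -0.97. Single and double morphants share their WT libraries, so these values are given side by side, with no test of the departure from the sums. The scale of log2(RPKM + 1) understates changes of weakly expressed genes, so a departure from a sum depends on it. As ratios of mean RPKM to WT, ahsg1 at 6-somites stood at 3.59 in Gata5, 5.46 in Gata6 and 19.5 in double morphants.

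**Figure D4:**
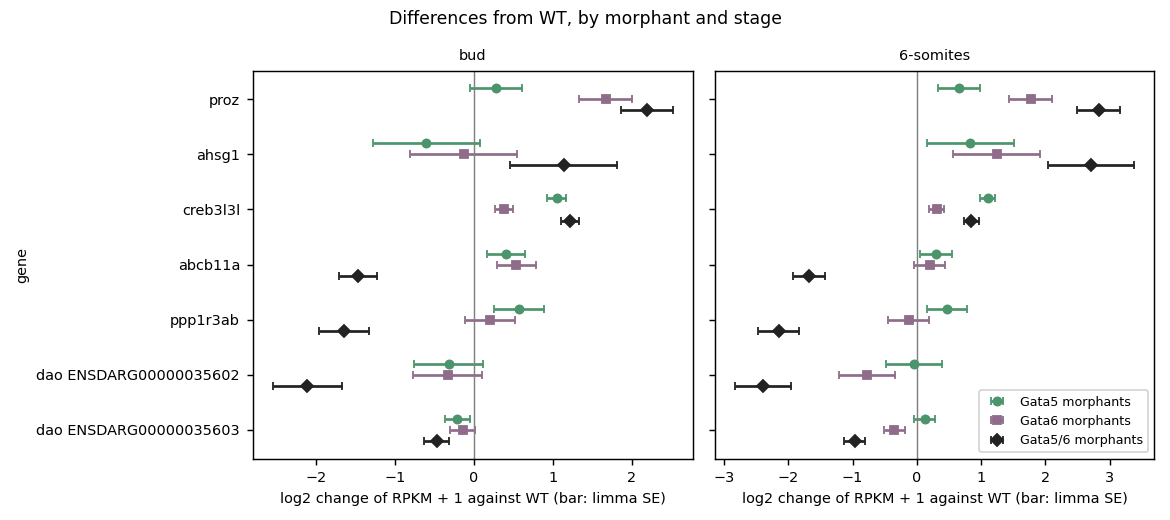
Log2 change of RPKM + 1 against WT for the 7 members that entered the fit, at bud (left) and 6-somites (right), with green circles for Gata5, purple squares for Gata6 and black diamonds for double morphants, and bars of 1 limma standard error. The black diamonds of abcb11a, ppp1r3ab and dao ENSDARG00000035602 lie between -2.4 and -1.47, away from both single morphants, and those of proz lie at 2.19 and 2.83.

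The change from bud to 6-somites in WT embryos was the comparison that did not choose these genes by genotype, although the same WT libraries served as controls in those that did. abcb11a, ppp1r3ab and dao copies B and C rose, and the other 3 did not pass the test. abcb11a rose from 5.72 ± 2.07 to 20.4 ± 1.32 RPKM, a log2 change of 1.71 ± 0.244 (limma adjusted p = 0.000374). dao copy B rose from 6.21 ± 3.38 to 31.3 ± 1.55 RPKM, a log2 change of 2.25 ± 0.438 (adjusted p = 0.00273). dao copy C rose by 1.01 ± 0.158 (adjusted p = 0.000664), and ppp1r3ab rose by 1.42 ± 0.316 (adjusted p = 0.00578), from 3.66 ± 2.22 to 10.8 ± 0.284 RPKM. In all 4 both libraries at 6-somites were above both at bud. The 4 calls among 7 genes stand beside 20.3% of all 14751 genes called higher and 9.56% called lower, and the median log2 change was 1.01 for the 7 and 0.08 for all genes. Among the 4 are dao copies B and C, which may share reads. All 4 stood low in double morphants against the same WT 6-somites libraries. The count, the median and the adjusted p of each of the 4 are therefore not free of the choice of genes. With median-of-ratios scaling the median of all genes was 0.13 lower and 47.2% of the calls were higher, against 68% as deposited. Relative to that shift the 4 genes still passed, with log2 changes of 1.56, 2.09, 0.91 and 1.28 for abcb11a, dao copy B, dao copy C and ppp1r3ab. The size for ppp1r3ab depended on WT bud replicate 2, the lower of its WT bud libraries. Without it the log2 change was 0.92 and was not called (adjusted p = 0.0611), and without all 4 bud libraries of replicate 2 it was also 0.92 and was called (adjusted p = 0.0015).

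proz, creb3l3l and ahsg1 did not pass in WT. proz went from 0.62 ± 0.187 to 1.03 ± 0.149 RPKM (log2 change 0.33 ± 0.33, limma adjusted p = 0.491), and creb3l3l from 5.99 ± 0.895 to 5.32 ± 0.109 RPKM (-0.14 ± 0.116, adjusted p = 0.401). ahsg1 went from 4.9 ± 5.93 to 0.44 ± 0.0232 RPKM (-1.53 ± 0.676, adjusted p = 0.111). That value rests on WT bud replicate 2, the library with fabp10a at 90.1 RPKM, without which it was -0.25 (adjusted p = 0.801). Without WT bud replicate 1 it was -2.81 (adjusted p = 0.00321). When all 4 bud libraries of replicate 2 were left out, 4 of the 7 again rose and the same 3 did not pass, with log2 changes of 1.39, 1.75, 0.9 and 0.92 for abcb11a, dao copy B, dao copy C and ppp1r3ab.

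The genes that were low in double morphants were still higher at 6-somites than at bud there. Mean abcb11a at 6-somites was 4.17 times its level at bud in double morphants and 3.57 times in WT. For ppp1r3ab the ratios were 4.17 and 2.94, for dao copy B 8.1 and 5.04, and for creb3l3b 6.06 and 1.93. For dao copy C the ratio was lower in double morphants, 2.33 against 2.96 in WT. None of these differences between ratios was tested. Double morphants at 6-somites had abcb11a at 5.71 ± 1.17 RPKM, where WT at bud had 5.72 ± 2.07 RPKM. For dao copy B these levels were 5.17 ± 1.38 and 6.21 ± 3.38 RPKM, and for ppp1r3ab 1.67 ± 0.328 and 3.66 ± 2.22 RPKM. The libraries overlapped for abcb11a and dao copy B and not for ppp1r3ab.

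**Figure D5:**
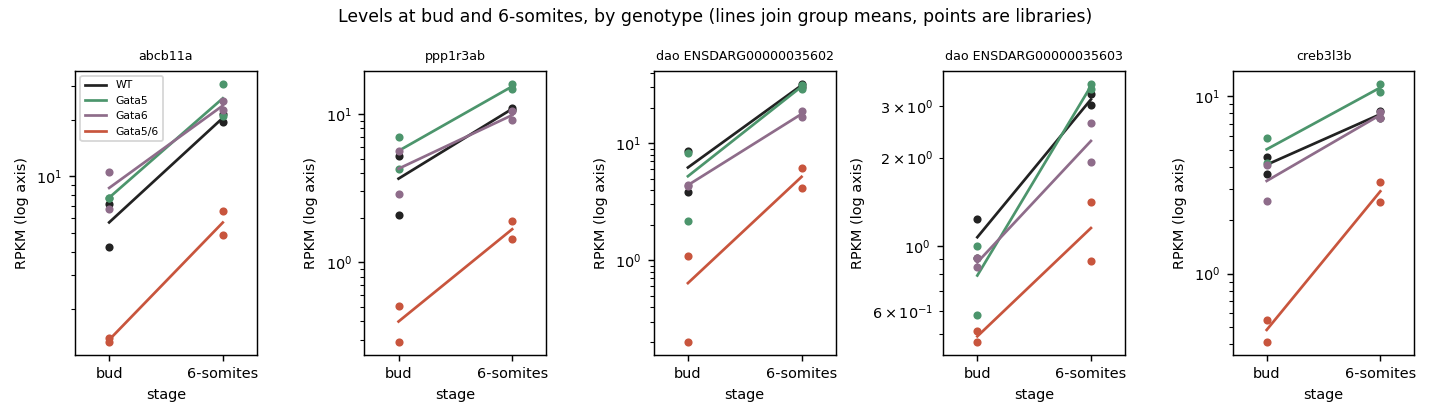
RPKM at bud and 6-somites on log axes for abcb11a, ppp1r3ab, dao ENSDARG00000035602, dao ENSDARG00000035603 and creb3l3b, with points for libraries and lines joining group means in black for WT, green for Gata5, purple for Gata6 and red for double morphants. The red line runs below the others and upward in every panel, for abcb11a from 1.37 to 5.71 RPKM.

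The other genes of the same pathways were taken from 6 lists that leave the members out. These lists were drawn up with earlier results of these data known, so their shares of called genes are given as a description. Together 125 of their genes were tested. In double morphants at 6-somites 9 were called higher and 4 lower, 10.4% of the 125, beside 1.78% of all genes called higher and 2.02% lower, and the median log2 change was 0.12 beside -0.02. Without any 1 of the 4 libraries compared, fewer of the 125 were called, and without the 4 bud libraries of replicate 2 more were. The number of all genes called moved the same way in both cases. At bud 1 was called higher and 3 lower, beside 0.766% and 0.827% of all genes. Leaving out single libraries moved the number in both directions. More were called without the 4 bud libraries of replicate 2, and fewer without the replicate 1 libraries of Gata6 and double morphants. The number of all genes called moved the same way in these cases. Gata6 morphants had 5 higher and 0 lower at bud, beside 0.854% and 0.779% of all genes, and 0 higher and 1 lower at 6-somites, beside 0.156% and 0.183%. At these stages 29 and 26 had an unadjusted p under 0.05 and limma-voom called 8 and 1. Gata5 morphants had 0 called by limma at both stages, with 10 at bud and 13 at 6-somites at an unadjusted p under 0.05, and limma-voom called 0 and 1.

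Of 38 plasma and coagulation proteins tested, 5 rose in double morphants at 6-somites and 0 fell, with 1 lower at an unadjusted p under 0.05 and 0 lower by limma-voom. The median log2 change of the list was 0.56. Without the 4 bud libraries of replicate 2 more of the list were called, and so were more of all genes. The list shares f2, fgb, tfa, cp, hpxa, ambp, c9 and serpina1 with the hepatocyte markers. f10, the coagulation factor whose activated form protein Z helps to inhibit, rose from 0.134 ± 0.0753 to 2.93 ± 0.534 RPKM (log2 change 1.79 ± 0.27, limma adjusted p = 0.00495). f7, another vitamin K-dependent coagulation factor, rose from 0.612 ± 0.256 to 3.49 ± 0.255 RPKM (1.49 ± 0.247, adjusted p = 0.0075). itih2, a heavy chain of a plasma protease inhibitor, rose from 7.69 ± 0.519 to 26.9 ± 1.76 RPKM (1.68 ± 0.319, adjusted p = 0.0141). The kininogen gene kng1 and the heparin cofactor gene serpind1 rose by 1.07 ± 0.24 and 0.89 ± 0.139 (adjusted p = 0.0323 and 0.00545). f10 also differed between the bud libraries that stood apart, at 0.031 and 1.25 RPKM in WT replicates 1 and 2. At bud 0 genes of this list were called in double morphants by limma or limma-voom, with 6 at an unadjusted p under 0.05, and vkorc1, which recycles vitamin K, fell in Gata6 morphants at 6-somites from 6.16 ± 0.598 to 3.44 ± 0.518 RPKM (-0.69 ± 0.122, adjusted p = 0.0414). That call was lost with median-of-ratios scaling, a pseudocount of 0.1, no filter, and without any 1 of the 4 libraries compared, each of which left 0 pathway genes called there. In WT development 4 of the 38 rose, among them vkorc1 and the vitamin K-dependent carboxylase ggcx, and 1 fell, while 20.3% of all genes were called higher and 9.56% lower.

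The bile acid list held 9 tested genes. In double morphants 0 were called at either stage by limma or limma-voom, with 3 at bud and 2 at 6-somites at an unadjusted p under 0.05. In Gata6 morphants at bud 2 rose, the ileal bile salt uptake gene slc10a2 from 0.268 ± 0.0773 to 1.29 ± 0.68 RPKM (limma adjusted p = 0.0372) and the acyl-CoA synthetase slc27a2a from 51.2 ± 9.69 to 89.4 ± 1.14 RPKM (adjusted p = 0.0307). In WT development 2 of the 9 rose, slc27a2a and the transporter abcc4, while 20.3% of all genes were called higher and 9.56% lower.

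Of 24 peroxisomal and D-amino acid genes, 2 rose in double morphants at 6-somites, where dao copies B and C were low. hacl1, a lyase of fatty acid alpha-oxidation, rose from 4.21 ± 0.396 to 10.6 ± 0.186 RPKM (log2 change 1.16 ± 0.228, limma adjusted p = 0.0171), and at bud from 2.76 ± 0.272 to 7.54 ± 3.2 RPKM (adjusted p = 0.0342). hao1, the glycolate oxidase of the liver peroxisome, rose from 10.5 ± 2.58 to 21.2 ± 0.127 RPKM (0.97 ± 0.173, adjusted p = 0.0104), and in Gata6 morphants at bud from 1.12 ± 0.0133 to 4.71 ± 0.363 RPKM (adjusted p = 0.0048). The median of the list was 0.01. Without the 4 bud libraries of replicate 2 more of the list were called higher, and more of all genes were called too.

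Of 22 glycogen genes, 2 rose and 2 fell in double morphants at 6-somites. gys2, the liver form of glycogen synthase, fell from 2.07 ± 0.169 to 0.562 ± 0.0873 RPKM (log2 change -0.98 ± 0.132, limma adjusted p = 0.00261), the direction of ppp1r3ab. The glycogen phosphorylase gene pygb fell by 0.42 ± 0.101 (adjusted p = 0.0429). ppp1r3c (ENSDARG00000014554), another glycogen-targeting subunit of protein phosphatase 1, rose from 3.21 ± 0.466 to 5.86 ± 0.208 RPKM (adjusted p = 0.0146), and the kinase gene gsk3a rose by 0.42 ± 0.104 (adjusted p = 0.0484). In WT development, in which 20.3% of all genes were called higher and 9.56% lower, 7 of the 22 rose, among them gys2 (0.9 ± 0.132, adjusted p = 0.00045) and the glucose transporter slc2a2 (1.74 ± 0.312, adjusted p = 0.00165), and 3 fell.

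Of 17 genes of the Creb3 list, creb3l3b alone was called in double morphants at 6-somites, and in Gata6 morphants at bud the stress factor ddit3 rose from 6.73 ± 1.11 to 15.9 ± 2.82 RPKM (limma adjusted p = 0.0307). Of 16 liver and gut regulators, tbx3 alone was called in double morphants, where it fell at bud from 9.33 ± 1.48 to 5.21 ± 0.81 RPKM (adjusted p = 0.0384) and at 6-somites from 16.5 ± 0.883 to 10.1 ± 0.022 RPKM (adjusted p = 0.0379). nr2f2 rose in Gata6 morphants at bud, from 0.623 ± 0.0792 to 1.6 ± 0.134 RPKM (adjusted p = 0.0175).

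Likeness of pattern was described by Pearson's r of log2(RPKM + 1) over the 16 libraries after the mean of each stage was removed. These libraries share genotypes and depth, so r has no p and says that levels went together across libraries. Only tested genes with a symbol were ranked, and among these abcb11a and ppp1r3ab were each other's most similar gene, with r of 0.97. Next for abcb11a were the acyl-CoA synthetase acsl5 at 0.95 and creb3l3b at 0.93, and for ppp1r3ab fabp2 and creb3l3b, both at 0.96. dao copy B was most like fabp2 (0.96), prdx5 (0.95) and trpm4a (0.94), and copy C most like ablim1 (0.94), mafbb (0.93) and slc52a3 (0.93). proz was most like selenop2 (0.97), amdhd1 (0.96) and ifi30a (0.96). ahsg1 was most like grhprb (0.93), the plasma adhesion protein vtn (0.92) and f10 (0.92), and creb3l3l most like pgam1b (0.94), tnpo2a (0.93) and gata5 (0.93). Among the members, r was 0.77 to 0.97 for the 6 pairs of abcb11a, ppp1r3ab and dao copies B and C, 0.66 for proz with ahsg1, and 0.4 and 0.43 for creb3l3l with these. The members were chosen for their differences between genotypes in these same libraries. Likeness among them is therefore in part set by the choice, and nothing is read from it.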

How the data were processed

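The authors deposited 1 table of RPKM per library, per the file headers, on genome build Zv9, per the submitters' processing notes. For the aligner, the annotation and the counting tool, the sources used here give no name. Gene positions and sequences were not used. RPKM scales reads to gene length and library size, so a gene's value also moves with the rest of the library. Bud files list 26291 genes and 6-somites files 26496, none at 0. The smallest recovered value was 1 read. Whether that value is a read or a floor given to genes without reads cannot be told from the files, so the lowest values do not show detection.

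Names came from a table of gene identifiers, which named 19258 of 27257. Values were tested as log2(RPKM + 1) with limma 3.58.1 (trend option, R 4.3.3), which understates changes of weakly expressed genes. A gene entered if 2 or more of the 16 libraries had it at 1 RPKM or above, with a mean per group, 8 residual degrees of freedom, two-sided tests and Benjamini-Hochberg adjustment over all genes of a comparison. The design foresaw a count model if the files had held counts. RPKM errors are SD over 2 libraries. The fit gives each gene 1 spread for both stages, although libraries differed more at bud. Whole reads were recovered from RPKM steps for 27021 identifiers (99.13%, tolerance 0.01 reads rising to 0.05), which gave the depth and the input of limma-voom. Both steps were tested on simulated data.

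Named genes were the members, gata5, up to 4 called genes per list and comparison (1 further, serpind1, was named after its values were seen), relatives of the members, and the 3 most similar genes with a symbol. Members and lists were chosen with earlier results of these data known. Alternatives were another pseudocount (0.1), no filter, median-of-ratios scaling, the libraries of a comparison alone, a replicate block, limma-voom, leaving out each library, and 2 added after seeing the data, without the 4 bud libraries of replicate 2 and without Gata6 and Gata5/6 morphant replicate 1 at bud.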

Additional observations from a re-analysis of the deposited data

How the results depend on the processing

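With 2 libraries per group, spread is estimated across all groups, and the numbers of genes called differed widely between settings. Of the recomputed log2 changes of the members between genotypes, 408 stayed within 1 limma standard error of the fit of all libraries, and 96 moved by more. None that was called changed direction. Part of the 408 could not move. The fits without a filter, of the libraries of a comparison alone and with the replicate block keep the same group means. The 2 settings added after seeing the data drop bud libraries only and leave the 6-somites differences as they were. The 408 are therefore no measure of stability. Counts below are for Gata5, Gata6 and Gata5/6 morphants against WT at bud and then at 6-somites, where the fit of all libraries called 53, 241, 235, 70, 50 and 560 genes, and 0, 5, 4, 0, 1 and 13 pathway list genes. The cause of these changes was not tested unless fewer libraries were used.

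In a fit of the libraries of the comparison alone, 1, 0, 6, 1249, 927 and 2975 genes were called, the 0 having 1399 genes at an unadjusted p under 0.05, and pathway genes numbered 0 and 0 for Gata6 and double morphants at bud (18 and 16 unadjusted) and 16, 33 and 48 at 6-somites. Without the 4 bud libraries of replicate 2 the genes were 932, 793, 1895, 1247, 909 and 2959, the pathway genes 9, 19, 28, 16, 32 and 49, and WT development had 5633 genes instead of 4404 and 63 pathway genes instead of 36. Without Gata6 and Gata5/6 morphant replicate 1 at bud the genes were 208, 2636, 141, 323, 210 and 1104, and the pathway genes 13 and 1 for Gata6 and double morphants at bud and 3 and 5 for Gata5 and Gata6 morphants at 6-somites. Median-of-ratios scaling called 81 genes in Gata5 morphants at bud, and 1 and 0 pathway genes in Gata5 and Gata6 morphants at 6-somites (17 and 27 unadjusted). It moved the share of calls that were higher from 37.7% to 48.1% in Gata5 morphants and from 48.1% to 37.3% in double morphants at bud, and from 75.7% to 65.7% in Gata5 morphants at 6-somites. Without a filter there were 121 genes in Gata5 morphants at 6-somites, and 2, 2 and 0 pathway genes in Gata6 and double morphants at bud and Gata6 morphants at 6-somites (27 unadjusted). A pseudocount of 0.1 gave 32 genes and 0 pathway genes (27 unadjusted) in Gata6 morphants at 6-somites, and a share of higher calls of 60% instead of 46.8% in double morphants there. limma-voom gave 8 and 1 pathway genes in Gata6 morphants at bud and Gata5 morphants at 6-somites.

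Leaving out each library gave 8 to 30, 17 to 2222, 61 to 388, 3 to 9, 1 to 2 and 78 to 228 genes, and 2390 to 4053 in WT development instead of 4404. Pathway genes were 0 to 0, 1 to 12, 1 to 5, 0 to 0, 0 to 0 and 1 to 5, and 22 to 40 in WT development. The WT development log2 change of ahsg1 ran from -2.81 to -0.25 and that of ppp1r3ab from 0.92 to 1.93.

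The labels number the libraries 1 and 2 in every group. Correlations of same-numbered deviations between groups were 0.189 to 0.557 at bud and 0.23 to 0.533 at 6-somites, and with 2 numbers this does not show that they pair the samples. With the replicate number as a block, 88, 472 and 362 genes were called at bud and 115 in Gata5 morphants at 6-somites, pathway genes were 9 in Gata6 morphants at bud and 1 and 20 in Gata5 and double morphants at 6-somites, and ahsg1 passed in WT development (-1.53, adjusted p = 0.0296). The block also called 3 hepatocyte markers higher in double morphants at 6-somites instead of 0, and 12 plasma and coagulation genes instead of 5. These lists share most of the hepatocyte markers, so the counts are not separate observations.

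Depth limits dao copy A, with 3 to 54 reads per library. It also limits some bud levels of other members. In double morphants at bud dao copy B had 58 and 15 reads, copy C 12 and 18, and ppp1r3ab 49 and 39. In WT at bud proz had 35 and 20. All levels are further limited by 2 pools per group.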
